A study of Schizosaccharomyces pombe with 8 samples.

Results

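The small subunit of the cytosolic ribosome is described here through 50 genes of the fission yeast Schizosaccharomyces pombe. They are the genes, among 527 in the deposited count table, whose symbol is rps followed by a number, without rps2202 and rps2601. Mitochondrial ribosomal protein genes and ubiquitin fusion genes are not among them. Symbols came from the RefSeq annotation of assembly ASM294v3, which held 515 of the 527 identifiers and a symbol for 490 of them. Both genes that were left out fell in total RNA, so their omission bears on every count of directions, and their values are given beside those of their copies. The 50 genes encode 30 proteins, of which 11 have 1 member gene, 18 have 2 and eS4 has 3. The gene rps1401 was not analysed here.

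RNA was sequenced from slr1- cells, labelled as a knockout, and from WT cells of strain yAS99, as total RNA and as polysome RNA. The groups were thus slr1- total RNA, WT total RNA, slr1- polysome RNA and WT polysome RNA, each with 2 libraries that the labels call biological replicates. The cells of all 4 groups grew in YES medium at 32 °C and 200 rpm, and all carry the label of a treatment with cycloheximide at 100 µg/mL, a drug that halts ribosomes on the mRNA. No more is said of separate cultures, so a p-value here speaks of the spread among these libraries. The slr1 gene itself was not analysed here, so the knockout label has no check in these data and every direction rests on the labels. Counts summed over the listed genes ran from 550490 to 1110838 per library, which is not the depth of the libraries. The rule by which the genes were listed is not given. Each listed gene carries a change type from the authors, "both" for 250 and "translational only" for 277. Of the 50 genes 25 carry the first label and 25 the second. Members and all listed genes are thus genes with such a label, and a share over all listed genes is not a share over the genome. The 50 genes had mean counts of 260.25 to 12547 per library, with a median of 2031.

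The small subunit binds the mRNA, scans for the start codon and pairs codons with tRNAs, and it consists of ribosomal RNA and a set of proteins spread over a head, a platform and a body. Yeasts keep more than one gene copy for many of these proteins, and the proteins of the copies are often identical. Slr1p is related to LARP1, a protein that in mammals binds the mRNAs of ribosomal proteins near the cap, at a run of pyrimidines. In fission yeast the promoters of ribosomal protein genes carry a HomolD box in the place of a TATA box, often with a HomolE box farther upstream.

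The promoters of the 5 genes with the largest change in total RNA, and of the other copy of each, show how far these boxes are shared between copies that changed to different extents. Each line gives the 120 bases before the annotated transcript start, 5′ to 3′ on the gene's strand, from the RefSeq assembly ASM294v3. Capitals mark the first 7 letters of HomolD (CAGTCAC, or GTGACTG on the opposite strand) and the core of HomolE (CCCTACCC, or GGGTAGGG). The stretches lie at chrI:1711083-1711202, minus strand (rps1602) and chrII:1793817-1793936, plus strand (rps1601). Those of the rps12 copies lie at chrIII:553054-553173, plus strand (rps1201) and chrII:499045-499164, minus strand (rps1202). Those of the rps18 copies lie at chrIII:1033482-1033601, minus strand (rps1802) and chrII:3620464-3620583, minus strand (rps1801). Those of the rps30 copies lie at chrII:2349452-2349571, minus strand (rps3002) and chrI:4890200-4890319, plus strand (rps3001). Those of the rps28 copies lie at chrIII:1827367-1827486, minus strand (rps2802) and chrI:4305816-4305935, plus strand (rps2801).
rps1602: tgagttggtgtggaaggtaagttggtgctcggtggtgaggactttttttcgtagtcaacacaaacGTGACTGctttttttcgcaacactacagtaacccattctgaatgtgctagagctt
rps1601: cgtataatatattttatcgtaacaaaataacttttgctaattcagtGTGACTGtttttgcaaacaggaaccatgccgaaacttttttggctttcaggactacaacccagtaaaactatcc
rps1201: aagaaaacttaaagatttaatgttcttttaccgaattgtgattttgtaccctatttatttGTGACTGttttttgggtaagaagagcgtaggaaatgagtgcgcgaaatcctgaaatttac
rps1202: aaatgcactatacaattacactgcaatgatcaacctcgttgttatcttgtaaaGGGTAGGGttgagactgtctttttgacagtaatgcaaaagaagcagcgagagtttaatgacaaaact
rps1802: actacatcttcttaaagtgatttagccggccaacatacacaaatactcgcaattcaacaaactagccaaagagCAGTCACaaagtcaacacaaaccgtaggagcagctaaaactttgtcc
rps1801: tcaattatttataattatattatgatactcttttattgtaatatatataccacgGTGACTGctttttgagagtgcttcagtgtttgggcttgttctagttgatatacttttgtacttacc
rps3002: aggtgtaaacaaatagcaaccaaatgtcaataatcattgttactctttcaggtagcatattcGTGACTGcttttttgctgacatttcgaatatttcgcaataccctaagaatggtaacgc
rps3001: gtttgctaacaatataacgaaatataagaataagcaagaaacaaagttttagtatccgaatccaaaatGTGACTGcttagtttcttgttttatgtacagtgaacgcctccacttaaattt
rps2802: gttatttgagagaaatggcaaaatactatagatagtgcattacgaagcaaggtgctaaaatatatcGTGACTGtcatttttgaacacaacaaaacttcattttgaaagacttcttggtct
rps2801: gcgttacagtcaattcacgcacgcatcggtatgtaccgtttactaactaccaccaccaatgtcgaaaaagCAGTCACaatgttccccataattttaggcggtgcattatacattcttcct

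Within 250 bases before the start, on either strand, the 8-letter HomolD box CAGTCACA stood in 32 of the 50 promoters (64%), against 2.62% of all 5112 annotated protein-coding promoters. Its first 7 letters, a form searched after the promoters had been seen, stood in 47 of 50 (94%), against 4.52% of all promoters. The promoters without it were those of rps1202, rps2302 and rps902. The HomolE core stood in 19 of 50 (38%), against 1.55% of all promoters. The large subunit genes of the table had similar shares, 64.9% for HomolD, 90.5% for its first 7 letters and 32.4% for the HomolE core. The 7-letter form ended 37 to 67 bases before the start (median 45) and the HomolE core 54 to 82 bases before it (median 62). The annotated first base of the transcript was C or T in 1 of 50 genes (2%), against 3.91% of all protein-coding genes. First bases and distances rest on annotated starts, which were not measured here. For rps21 and rps2501 the annotated transcript has 0 bases before the coding sequence, so its first base is that of the start codon. Genes with the 8-letter box rose in total RNA in 18 of 32 cases (median log2 change 0.42), and genes without it in 12 of 18 (0.36). Genes with the HomolE core rose in 9 of 19 cases (0.32), and genes without it in 21 of 31 (0.48). Of all 50 genes 30 rose in slr1- total RNA, and of all listed genes 19.7% rose, by the test given below. The counts by motif are descriptions, with no test of a difference.

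**Figure D1:**
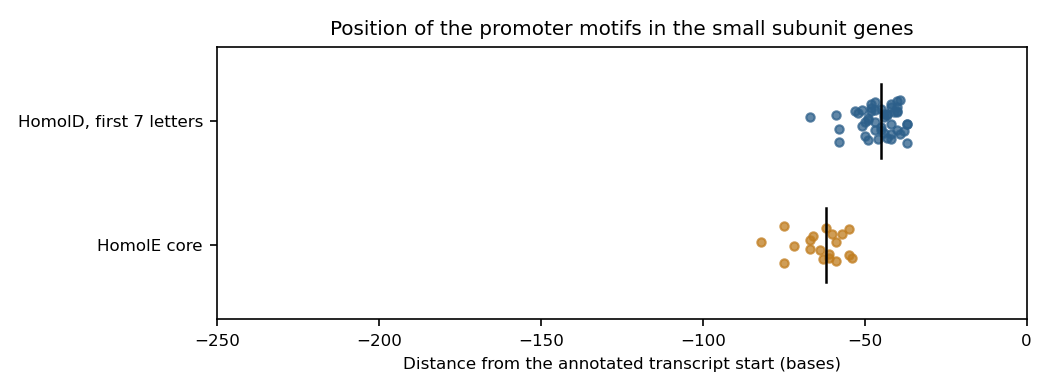
Distance from the annotated transcript start, in bases, of the first 7 letters of HomolD in 47 promoters and of the HomolE core in 19 promoters of small subunit genes. Points are promoters, spread vertically for sight only, and black lines are the medians, 45 and 62 bases before the start. The HomolD points lie between 37 and 67 bases and the HomolE points between 54 and 82 bases.

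Small subunit mRNAs took a larger share of the listed counts in slr1- cells than in WT cells, in both kinds of RNA. In total RNA they held 21.8% and 20.1% of the listed counts in the slr1- libraries, against 18.7% and 17.9% in the WT libraries. In polysome RNA they held 15.0% and 15.7% in the slr1- libraries, against 13.4% in each WT library. The mean share of the large subunit genes was higher in slr1- too, 31.2% against 26.9% in total and 27.0% against 24.5% in polysome RNA. The libraries of the strains did not overlap in either kind of RNA, and no test was made of these shares. The listed counts are not whole libraries, so the shares are relative to the other listed genes. In bulk RNA, a change in the amount of RNA per cell and a change in the mix of cells cannot be told apart.

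Total RNA was compared to see how mRNA levels differ between slr1- and WT cells. Of the 50 genes 30 rose in slr1- total RNA, 0 fell and 20 did not pass an adjusted p of 0.05 (edgeR quasi-likelihood test, two-sided, Benjamini-Hochberg over the 527 listed genes). Of all listed genes 19.7% rose and 33.6% fell. The median log2 change of the 50 genes was 0.39 (1.31-fold), against -0.19 over all listed genes and -0.36 over the 401 listed genes that encode no ribosomal protein. Changes ran from -0.21 to 1.04, and 48 of the 50 were above 0. In 37 of the 50 genes both slr1- libraries lay above both WT libraries, which held for 28.8% of all listed genes. The large subunit genes had 45 of 74 higher, 2 lower and a median of 0.39. Without replicate 1 of slr1- total RNA 12 of the 50 genes passed, all among the 30, and without replicate 2 of WT total RNA 20 passed. With library sizes alone 20 passed, and with TMM factors computed without ribosomal protein genes 44. With genes of at least 500 counts 19 of 47 passed. The level of the changes depends on the scaling, since TMM factors computed without ribosomal protein genes raised the median of all listed genes by 0.34 and library sizes alone lowered it by 0.18. The distance between the medians of the 50 genes and of the genes that encode no ribosomal protein was 0.74 to 0.76 under those scalings. A change of scaling moves all genes nearly alike, so this distance could hardly change. With genes of at least 500 counts it was 0.55.

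**Figure D2:**
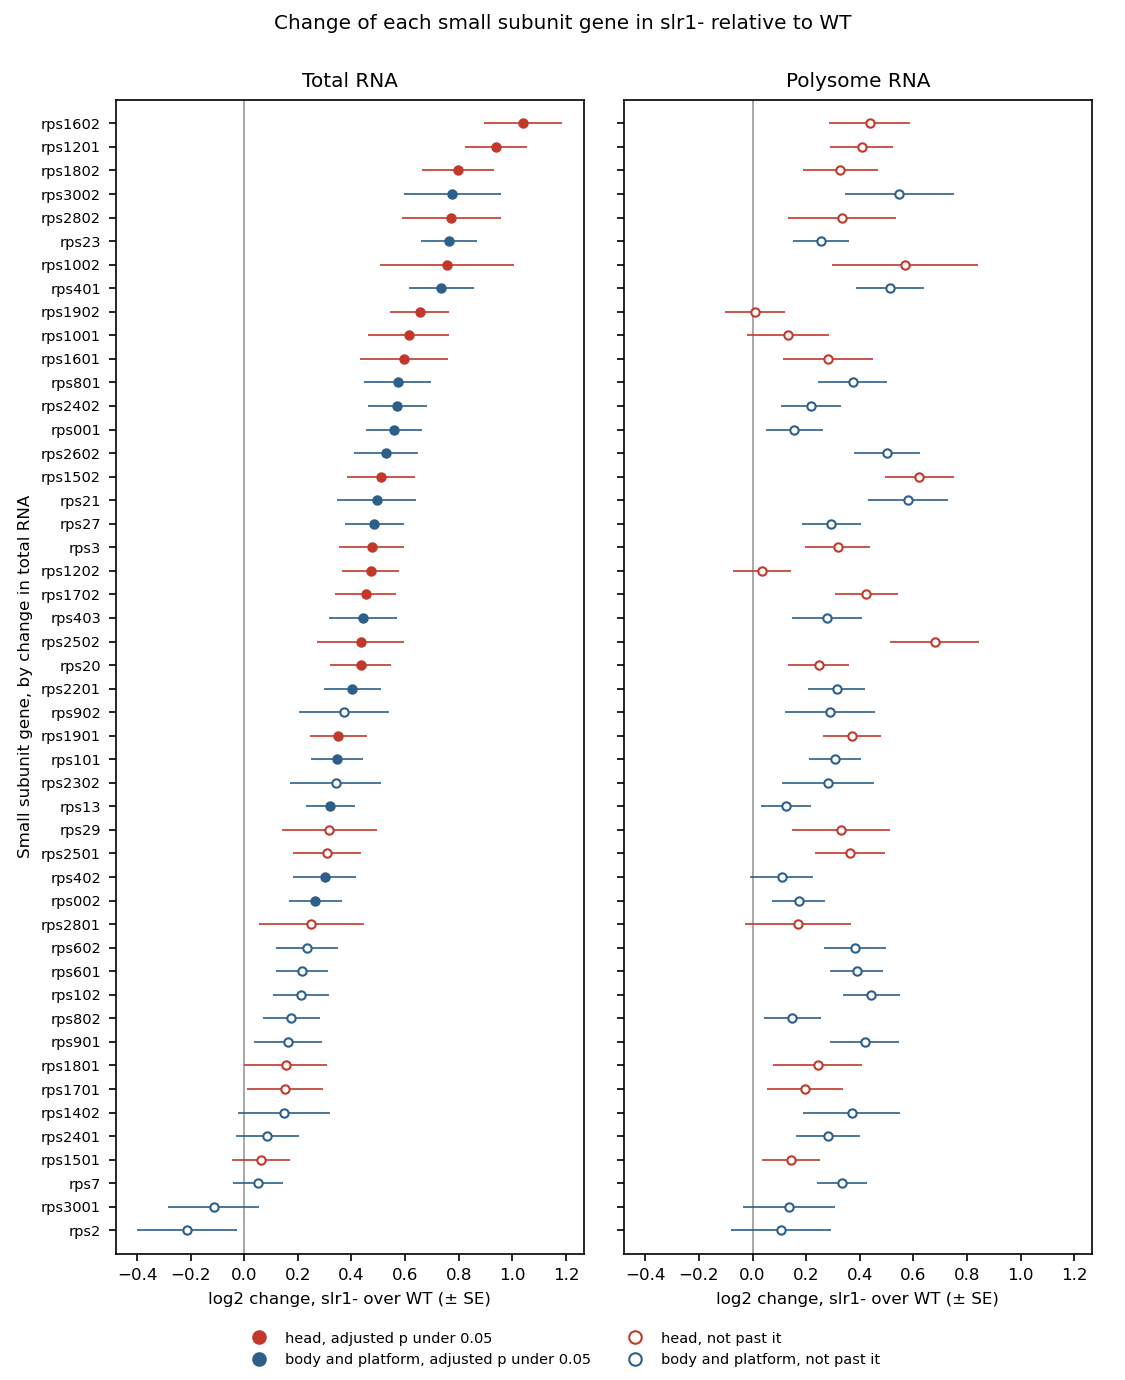
Log2 change of 48 of the 50 small subunit genes in slr1- relative to WT, in total RNA (left) and polysome RNA (right), with genes ordered by the change in total RNA from rps1602 at the top to rps2 at the bottom. Bars are standard errors, filled points passed an adjusted p of 0.05, and colours part head proteins from body and platform proteins. In total RNA 30 points are filled, and in polysome RNA all 48 lie right of 0 and none is filled.

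Proteins of the head were encoded by 21 of the genes. Of these 15 rose in slr1- total RNA (median log2 change 0.47), against 19.7% of all listed genes. The gene with the largest change was rps1602 (SPAC664.04c; chromosome I, 1710473-1711082), which encodes uS9, a protein whose tail reaches the tRNA in the P site. It had 1364 and 1197 normalised counts in slr1- total RNA, against 664 and 581 in WT total RNA. The slr1- libraries lay above the WT libraries, and the log2 change was 1.04 ± 0.15 (SE; 2.06-fold, adjusted p = 0.000953). For rps1201 (SPCC962.04; chromosome III, 553174-553840), the gene of eS12 in the beak of the head, the values were 6893 and 5809 in slr1- and 3424 and 3199.7 in WT total RNA. It rose by 0.94 ± 0.12 on the log2 scale (adjusted p = 0.000945), with no overlap of the libraries. The uS13 gene rps1802 (SPCC1259.01c; chromosome III, 1032876-1033481) had 1096 and 900.1 in slr1- and 590.3 and 559 in WT total RNA. It encodes a head protein at the contact with the large subunit, and its log2 change was 0.80 ± 0.14 (adjusted p = 0.00204). The eS28 gene rps2802 (SPCC285.15c; chromosome III, 1826905-1827366) had 1866 and 1617 in slr1- and 1063 and 975 in WT total RNA. This gene of a small protein near the mRNA exit rose by 0.77 ± 0.19 (adjusted p = 0.00666), a call that was lost without replicate 1 of slr1- total RNA (0.67, adjusted p = 0.0812). All 4 of these genes had slr1- libraries above their WT libraries. Other head genes that rose were rps1002 and rps1001, which encode eS10 (0.76 and 0.61), rps1902 and rps1901, which encode eS19 (0.65 and 0.35), and rps3, the uS3 gene at the mRNA entry (0.48). The head genes that did not pass were rps1501, rps1701, rps1801, rps2501, rps2801 and rps29, with log2 changes from 0.062 to 0.32.

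Proteins of the body and platform were encoded by 29 of the genes. Of these 15 rose in slr1- total RNA (median log2 change 0.32), against 19.7% of all listed genes. The placing of a protein in the head or in the body and platform follows ribosome structures of other eukaryotes. The largest change was that of rps3002 (SPBC19G7.03c; chromosome II, 2348960-2349451), a gene of eS30 near the decoding site. It had 494 and 399 normalised counts in slr1- and 273 and 248 in WT total RNA. The libraries did not overlap, and the log2 change was 0.78 ± 0.18 (SE; 1.71-fold, adjusted p = 0.00612). The uS12 gene rps23, whose protein helps to read the codon, rose by 0.76 ± 0.10 (adjusted p = 0.000953), and the eS4 gene rps401 by 0.73 ± 0.12 (adjusted p = 0.00173). The uS2 gene rps001 (0.56), the eS8 gene rps801 (0.57) and the eS24 gene rps2402 (0.57) rose as well. At the other end, rps2, the gene of uS5 at the mRNA entry, had 6346 and 4332 in slr1- and 7175 and 5211 in WT total RNA, and its libraries overlapped (-0.21 ± 0.19, adjusted p = 0.341). The gene lies head to head with rps20, with 490 bases between the annotated starts, and rps20, the uS10 gene, rose by 0.43 ± 0.11 (adjusted p = 0.00943). The eS7 gene rps7 had a log2 change of 0.051 ± 0.093 and the eS30 gene rps3001 of -0.11 ± 0.17, and neither passed. The change of rps3001 was above 0 with TMM factors computed without ribosomal protein genes (0.23) and with the libraries of total RNA alone (0.017).

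Genes with an intron rose in slr1- total RNA in 20 of 28 cases (median log2 change 0.48). Genes without one rose in 10 of 22 (0.29), against 19.7% of all listed genes. This is a description of genes chosen by name, and intron number, length and position were not separated. The 11 genes whose rise passed under every alternative scaling, test and left-out library were rps001, rps1201, rps1202, rps1602, rps1802, rps1902, rps23, rps2402, rps3002, rps401 and rps801. Of these, rps3002 had too few counts to enter the fit on genes of at least 500 counts, and the other 10 passed in that fit too. No share over all listed genes is given for the 11.

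Both genes left out of the set fell in slr1- total RNA while the other copy of each rose. The uS8 gene rps2202 had 366 and 493 in slr1- and 725 and 757 in WT total RNA (-0.79 ± 0.17, adjusted p = 0.00482), and its copy rps2201 had a log2 change of 0.40 ± 0.11 (adjusted p = 0.00987). The eS26 gene rps2601 had 1139 and 1027 in slr1- and 1349.6 and 1432 in WT total RNA (-0.36 ± 0.11, adjusted p = 0.0209), and its copy rps2602 had a log2 change of 0.53 ± 0.12 (adjusted p = 0.00536).

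Some copies of one protein differed in whether they passed the test in total RNA. Of the 18 proteins with 2 member genes, both genes rose in slr1- total RNA for 5, 1 of them for 10 and 0 for 3. The ratio of the copies within a library does not depend on scaling. For 17 of the 21 pairs of member copies, the 3 pairs among the eS4 genes included, the ratio in the slr1- total RNA libraries did not overlap that in the WT libraries. The ratio of any 2 listed genes did not overlap between these groups in 71.9% of all pairs, so the count for the copies shows nothing particular to them. The copy named first in a pair is the one with the larger change, so the direction of these differences follows from the naming. The SD of the log2 ratio between replicates had a median of 0.0916 and reached 0.53 for the eS28 copies in WT total RNA. With 2 libraries per group no exact permutation test can pass, so no p is given for single pairs.

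Among pairs of member genes the largest difference was between the eS30 copies, which encode the same protein, and that between the uS8 copies, of which rps2202 was left out, was larger (1.19). The log2 ratio of rps3002 to rps3001 was -2.45 and -2.52 in slr1- total RNA and -3.23 and -3.52 in WT total RNA. While rps3002 rose, rps3001 had 2707 and 2294 normalised counts in slr1- and 2561 and 2853 in WT total RNA, and its libraries overlapped. The difference between the log2 changes of these copies was 0.89. The uS13 copies also encode identical proteins, and the log2 ratio of rps1802 to rps1801 was 0.75 and 0.45 in slr1- and 0.20 and -0.25 in WT total RNA. Here rps1801 had 652 and 659 in slr1- and 512 and 665 in WT total RNA, with overlap (0.16 ± 0.15, adjusted p = 0.4). The difference between the changes of the uS13 copies was 0.64, and 0.40 without replicate 2 of WT total RNA. The eS28 copies, again with identical proteins, had a log2 ratio of rps2802 to rps2801 of -0.73 and -0.54 in slr1- and -0.76 and -1.51 in WT total RNA. The values of rps2801 were 3089.8 and 2352 in slr1- and 1805 and 2769 in WT total RNA, where the WT libraries stood far apart (0.25 ± 0.20, adjusted p = 0.287). The difference between the changes of the eS28 copies was 0.52 with all libraries. It was 0.12 without replicate 2 of WT total RNA, where rps2802 had a log2 change of 0.71 and rps2801 of 0.59 and both passed, and 0.86 without replicate 1 of WT total RNA. The eS24 copies rps2402 and rps2401 were level in slr1- total RNA, with log2 ratios of 0.037 and -0.034, against -0.54 and -0.43 in WT total RNA. Of these rps2402 had 3937 and 3697 in slr1- and 2348 and 2789 in WT total RNA, and rose by 0.57 ± 0.11 (adjusted p = 0.00349). Its copy rps2401 had 3837 and 3785 in slr1- and 3423 and 3756 in WT total RNA (0.086 ± 0.12, adjusted p = 0.54). Both eS12 copies rose, rps1202 with 3572 and 3108 in slr1- and 2398 and 2421 in WT total RNA (0.47 ± 0.10, adjusted p = 0.00519), which is 0.47 less than the change of rps1201. For the uS9 copies, the log2 ratio of rps1602 to rps1601 was -0.47 and -0.20 in slr1- and -0.86 and -0.72 in WT total RNA, and both copies rose. The values of rps1601 were 1891 and 1379 in slr1- and 1209.5 and 953 in WT total RNA (0.60 ± 0.16, adjusted p = 0.0127).

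**Figure D3:**
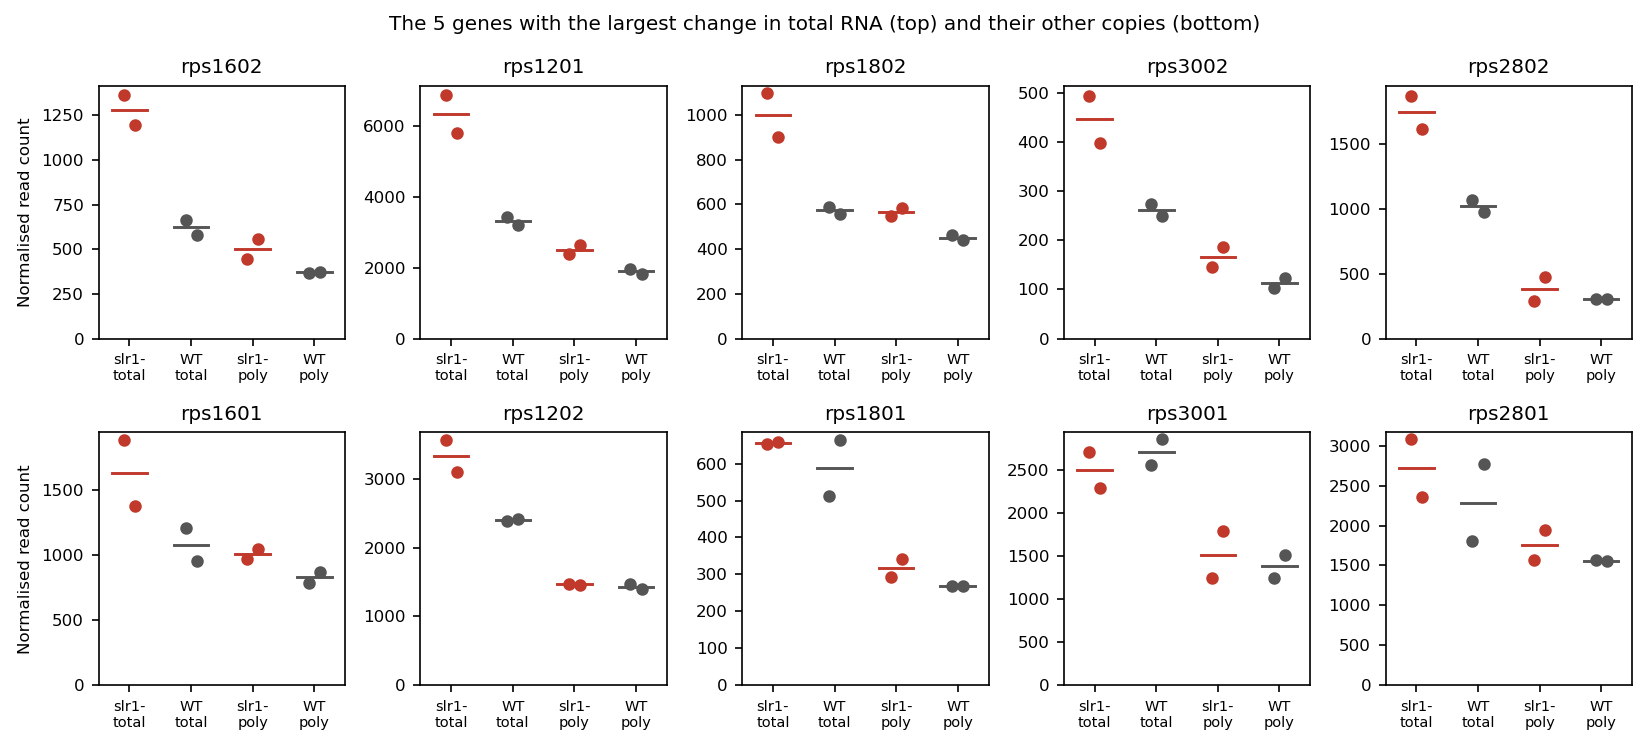
Normalised read counts in each library of the 5 genes with the largest change in total RNA (top row) and of the other copy of the same protein (bottom row), in slr1- and WT total RNA and in slr1- and WT polysome RNA (poly). Points are libraries, horizontal lines are means of 2 libraries, and each panel has its own scale from 0. In total RNA the slr1- points lie above the WT points in each panel of the top row, and they overlap for rps1801, rps3001 and rps2801.

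In the annotated transcripts 42 of the 50 genes shared no window of 50 bases, the read length, with another protein-coding transcript, and the other 8 shared at most 9.90% of their windows, rps1402 with rps1401 the most. The uS9 copies shared 0.957% (rps1602) and 0.668% (rps1601) of their windows. Coding sequences of copies were 74.6% to 93.5% identical, and 6 pairs of member copies encoded identical proteins. An annotated gene on the opposite strand overlapped 32 of the 50 genes and a gene on the same strand 4. The libraries were stranded, and no source used here says whether the counting used the strand. Where the copies of a protein were summed, those left out above included, 22 of 30 proteins rose in slr1- total RNA, 0 fell and 8 did not pass, against 19.4% of the 505 rows of that fit. Among the proteins that did not pass were those of rps2, rps6, rps7, rps9, rps14, rps29 and rps30. The summed eS30 copies had a log2 change of 0.0054 ± 0.17 (adjusted p = 0.977), and the summed eS12 copies of 0.78 ± 0.11 (adjusted p = 0.0012). Without replicate 1 of slr1- total RNA 6 proteins passed, and with library sizes alone 11.

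**Figure D4:**
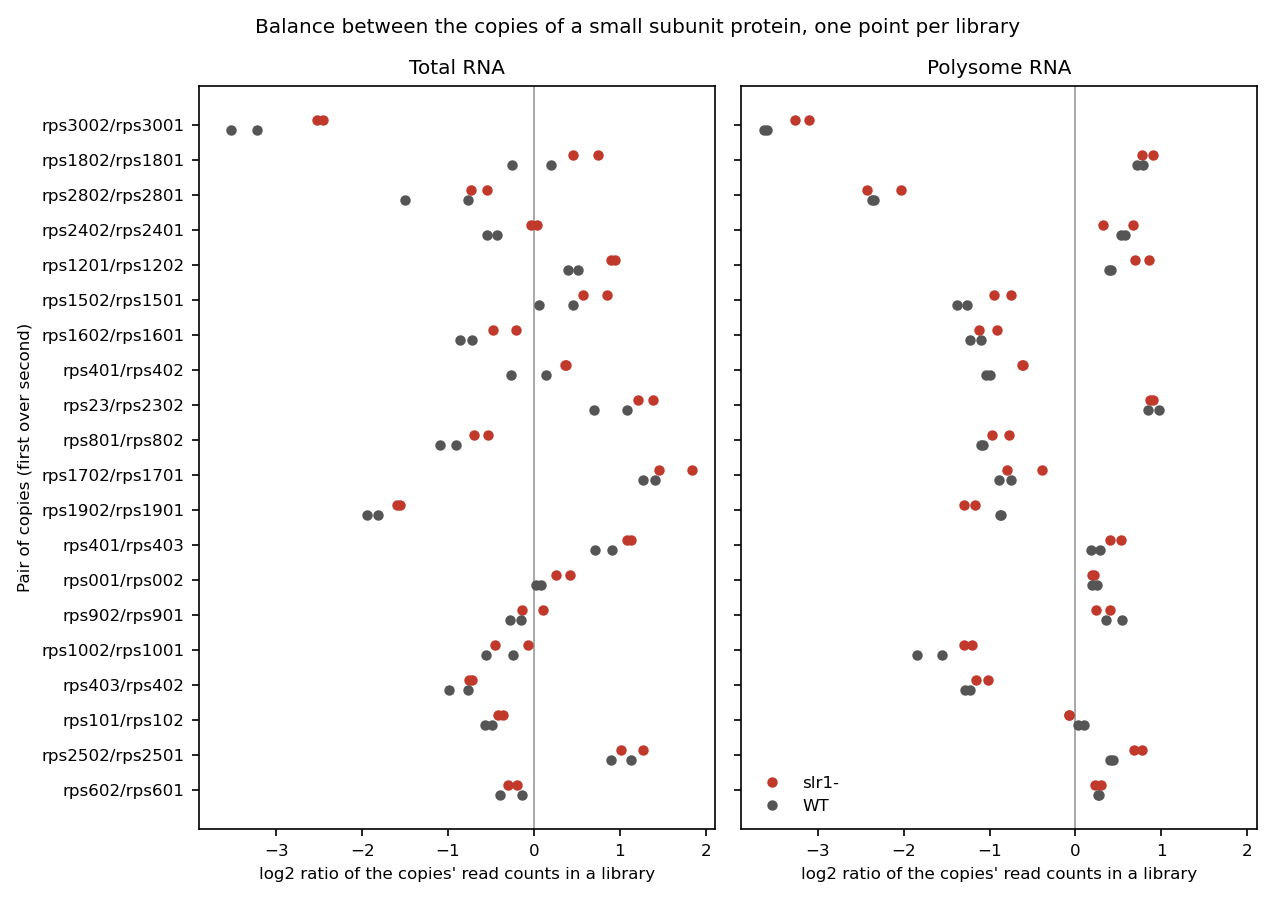
Log2 ratio of the read counts of 2 copies of a protein in each library, for 20 of the 21 pairs of member genes in total RNA (left) and polysome RNA (right), with slr1- libraries in red above WT libraries in grey. Pairs are ordered by the difference between the strains in total RNA, and the copy named first had the larger change there. The libraries of the strains do not overlap for 17 of these pairs in total RNA and for 11 in polysome RNA, against 71.9% of all pairs of listed genes in total RNA and 59.5% in polysome RNA.

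Polysome RNA was compared in the same way, for mRNA recovered with polysomes. In polysome RNA 0 of the 50 genes passed (edgeR quasi-likelihood, Benjamini-Hochberg), as did 0.0% of all listed genes. At an unadjusted p under 0.05, 25 of the 50 were higher in slr1- and 0 lower, against 13.5% higher among all listed genes. All 50 log2 changes were above 0, with a median of 0.31 (1.24-fold) and a range of 0.0091 to 0.68, against a median of -0.027 over all listed genes. Of the 74 large subunit genes 68 were above 0, with a median of 0.24. In 45 of the 50 genes both slr1- libraries lay above both WT libraries, against 28.8% of all listed genes. DESeq2 gave an adjusted p to 41 of the 50 genes, of which 11 rose, against 11.5% of the 200 listed genes that had one. Among them were rps102, rps1201, rps1502, rps1702, rps21, rps2502, rps2602, rps401, rps601 and rps7. Without replicate 1 of slr1- polysome RNA 1 gene passed the edgeR test, rps21 (0.78).

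The genes with the smallest p in polysome RNA did not pass the edgeR test and are given as values. The uS19 gene rps1502, whose protein reaches the decoding site, had 1479.7 and 1789 normalised counts in slr1- polysome RNA, against 1079 and 1045 in WT polysome RNA (0.62 ± 0.13, adjusted p = 0.0818). The eS1 gene rps102, of the platform, had 3553 and 3809 in slr1- and 2612 and 2802 in WT polysome RNA (0.44 ± 0.11, adjusted p = 0.0818). The eS26 gene rps2602, whose protein lines the mRNA exit, had 1945 and 2269 in slr1- and 1485 and 1493 in WT polysome RNA (0.50 ± 0.12, adjusted p = 0.0818). In each of these genes the slr1- libraries lay above the WT libraries. The eS25 gene rps2502, of the head, had 2407 and 3347 in slr1- and 1819 and 1776 in WT polysome RNA (0.68 ± 0.17, adjusted p = 0.0818). Its slr1- libraries lay above the WT libraries but far from each other. The 5 genes with the largest changes in total RNA had smaller log2 changes here, 0.44 for rps1602, 0.41 for rps1201, 0.33 for rps1802, 0.55 for rps3002 and 0.33 for rps2802. They were chosen by their change in total RNA, so smaller values here follow in part from the choice. Of the genes chosen here by their p in polysome RNA, rps1502, rps102 and rps2502 had smaller changes in total RNA (0.51, 0.21 and 0.43). The change of rps2602 in total RNA was slightly larger (0.53). Over the 50 genes the changes in total and polysome RNA had a Pearson r of 0.32 and a Spearman rho of 0.28, across genes that share the same libraries and are not independent. Over all 515 listed genes of the reference r was 0.63 and rho 0.66. Over the 389 of these that encode no ribosomal protein r was 0.47 and rho 0.46.

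The difference between the strains in polysome relative to total RNA was tested as an interaction. Of the 50 genes 0 passed (edgeR quasi-likelihood, Benjamini-Hochberg), against 0.38% of all listed genes. At an unadjusted p under 0.05, 9 were lower and 0 higher, against 8.35% lower among all listed genes, and DESeq2 called 3 lower, rps1201, rps1902 and rps23, against 3.42%. The median was -0.082, with 31 of 50 below 0, against 0.15 over all listed genes and 0.24 over those that encode no ribosomal protein. The large subunit genes had a median of -0.18, with 54 of 74 below 0. Library sizes alone moved all listed genes by 0.087 and the members' median to 0.0076. The distance between members and genes that encode no ribosomal protein was -0.31 there, against -0.32 with TMM, and scaling could hardly change it. With genes of at least 500 counts that distance was -0.20. Without replicate 1 of slr1- total RNA the members' median was 0.0029. Without replicate 2 of slr1- total RNA 5 passed, rps1201, rps1202, rps1802, rps1902 and rps23, and without replicate 1 of WT total RNA 1, rps1902. The smallest p was that of rps1902, a gene of eS19, a head protein needed for the making of the subunit in budding yeast and human cells. It had 1057 and 1062 in slr1- polysome RNA and 1062 and 1043 in WT polysome RNA, but 1494 and 1342 in slr1- total RNA and 935 and 866 in WT total RNA. Its level in total RNA thus differed between the strains while the polysome libraries overlapped (interaction -0.65 ± 0.16, adjusted p = 0.0531). The other copy, rps1901, had an interaction of 0.021 ± 0.15 (adjusted p = 0.942). The uS12 gene rps23 had 1552 and 1526 in slr1- and 1285 and 1292 in WT polysome RNA, and 2885 and 2656 in slr1- and 1711 and 1553 in WT total RNA (-0.51 ± 0.15, adjusted p = 0.074). The eS12 gene rps1201 had 2392 and 2640.2 in slr1- and 1964 and 1833 in WT polysome RNA (-0.53 ± 0.16, adjusted p = 0.086), and its copy rps1202 had 1478 and 1460.1 in slr1- and 1475 and 1393 in WT polysome RNA (-0.44 ± 0.15, adjusted p = 0.106). In these 4 genes the log2 difference between the strains was larger in total than in polysome RNA, and none of them passed the edgeR test of that difference. Total and polysome libraries of a strain enter both this comparison and those within a strain, which therefore share libraries.

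Small subunit mRNAs were low in polysome RNA relative to total RNA in both strains. In slr1- cells 40 of the 50 genes were lower in polysome than in total RNA and 0 higher, against 30.7% lower among all listed genes (edgeR quasi-likelihood, Benjamini-Hochberg). In WT cells 33 of the 50 were lower and 0 higher, against 28.8%. The median log2 difference was -0.63 in slr1- and -0.54 in WT, and over all listed genes it was 0.058 in slr1- and 0.013 in WT. Of the 74 large subunit genes 43 were lower and 3 higher in slr1- (median -0.45), and 37 were lower and 7 higher in WT (-0.30). Of the 21 head genes 19 were lower in slr1- (median -0.85) and 15 in WT (-0.75), and of the 29 body and platform genes 21 were lower in slr1- (-0.48) and 18 in WT (-0.47). Of the 28 genes with an intron 26 were lower in slr1- and 20 in WT, and of the 22 without one 14 were lower in slr1- and 13 in WT. With copies summed, 26 of 30 proteins were lower in slr1- (30.3% of the rows of that fit) and 24 of 30 in WT (29.3%). With library sizes alone 22 genes were lower and 4 higher in slr1-, and 22 were lower and 5 higher in WT. In each strain 22 genes were lower under every scaling, test and left-out library in which they were tested. The comparisons of the strains share no library, and over the 50 genes their values had a Pearson r of 0.91 and a Spearman rho of 0.865. Over all 515 listed genes of the reference r was 0.88 and rho 0.87, so this closeness is not particular to the members. The libraries hold relative amounts, so a lower share in polysome RNA is relative to the other listed genes.

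Single genes differed widely in this measure, and copies of one protein could stand far apart. The eS17 gene rps1702, of the head, had 1082 and 1288 normalised counts in slr1- polysome RNA, against 5849 and 5933 in slr1- total RNA (-2.31 ± 0.12, adjusted p = 1.13e-07). In WT it had 857 and 909 in polysome and 4527 and 4083 in total RNA (-2.29 ± 0.12, adjusted p = 1.6e-07). Its copy rps1701 had 1872 and 1692 in polysome and 2128 and 1656 in total RNA of slr1- (-0.086 ± 0.14, adjusted p = 0.599), with overlap. In WT rps1701 likewise overlapped (-0.13 ± 0.14, adjusted p = 0.478), so the log2 ratio of rps1702 to rps1701 was -0.79 and -0.39 in slr1- polysome and 1.46 and 1.84 in slr1- total RNA. In WT the log2 ratio of these copies was -0.89 and -0.75 in polysome and 1.27 and 1.41 in total RNA. The more abundant of the eS17 mRNAs in total RNA was thus the less abundant in polysome RNA, in every library of both strains. The eS21 gene rps21, with 1 member gene, had 4042 and 5684 in polysome and 23821 and 21599 in total RNA of slr1- (-2.22 ± 0.15, adjusted p = 1.31e-06), and 3237 and 3267 in polysome and 17369 and 14877 in total RNA of WT (-2.31 ± 0.15, adjusted p = 1.18e-06). The eS28 gene rps2802 had 291 and 476 in polysome and 1866 and 1617 in total RNA of slr1- (-2.18 ± 0.20, adjusted p = 6.54e-06), and a log2 difference of -1.74 ± 0.20 in WT (adjusted p = 4.69e-05). Its copy rps2801 was lower by less, -0.63 ± 0.20 in slr1- and -0.55 ± 0.20 in WT. The eS26 gene rps2602 had 1485 and 1493 in polysome and 5203 and 4933 in total RNA of WT (-1.77 ± 0.12, adjusted p = 1.46e-06), and -1.80 ± 0.12 in slr1-. Its copy rps2601, one of the genes left out, had 0.40 ± 0.11 in slr1- (adjusted p = 0.00923) and -0.055 ± 0.11 in WT (adjusted p = 0.718). The uS19 copies were split as well, with rps1502 at -1.58 ± 0.13 in slr1- and -1.69 ± 0.13 in WT, and rps1501 at -0.028 ± 0.11 in slr1- and -0.11 ± 0.11 in WT. Of the 21 pairs of member copies the ratio did not overlap between polysome and total RNA for 20 in slr1- and 18 in WT, and it differed by over 1 on the log2 scale for 3 in slr1- and 6 in WT. For the ratio of any 2 listed genes the groups did not overlap in 83.5% of all pairs in slr1- and 77.8% in WT. The counts of pairs without overlap thus show nothing particular to the copies either. For differences over 1 no share of all pairs was computed.

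Short members were lower in polysome relative to total RNA than long ones. Of the 9 genes with a coding length under 300 bases, 9 were lower in slr1- (median log2 difference -1.18) and 9 in WT (-1.11). Of the 25 genes of 300 to 500 bases, 21 were lower in slr1- (-0.70) and 14 in WT (-0.43). Of the 16 genes of 500 bases and more, 10 were lower in slr1- (-0.44) and 10 in WT (-0.36). Of all listed genes, of any length, 30.7% were lower in slr1- and 28.8% in WT. Across the 50 genes the correlation of the log2 difference with log2 coding length was r = 0.46 in slr1- and r = 0.43 in WT. Across all 515 listed genes of the reference it was r = 0.38 in slr1- and r = 0.36 in WT. Across the 389 of these that encode no ribosomal protein it was r = 0.20 in slr1- and r = 0.23 in WT. Spearman rho was 0.44 in slr1- and 0.40 in WT across the 50 genes, and 0.38 and 0.41 across the 515. These are correlations across genes measured in the same libraries. No source used here says which gradient fractions were taken as polysomes. The eS17 copies, which stood far apart in this measure, have coding lengths of 399 bases (rps1702) and 396 bases (rps1701), and the uS19 copies have 465 bases (rps1502) and 462 bases (rps1501).

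**Figure D5:**
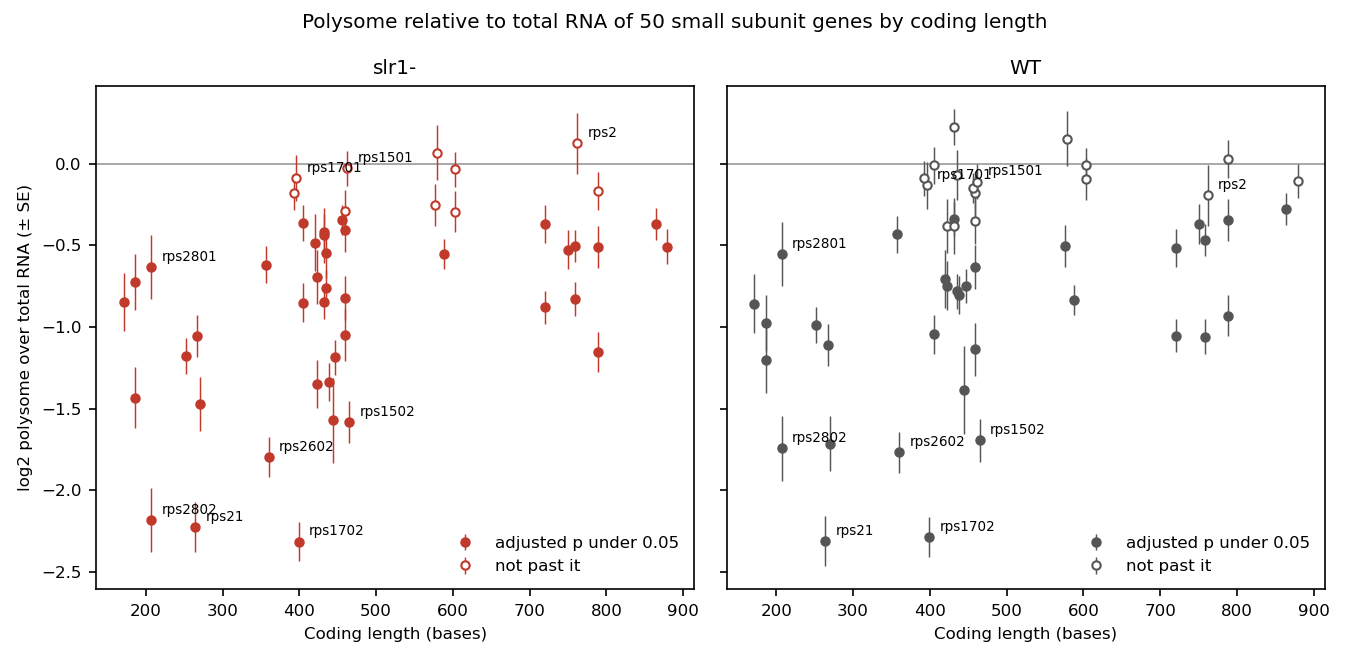
Log2 difference between polysome and total RNA of the 50 small subunit genes against coding length in bases, in slr1- (left) and WT (right). Bars are standard errors, and filled points passed an adjusted p of 0.05. Filled points are 40 in slr1- and 33 in WT, all below 0, and rps1702, rps21 and rps2802 lie lowest in slr1- while the copies rps1701, rps1501 and rps2801 lie nearer to 0.

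Levels per kilobase of transcript spanned 723 to 56353 normalised counts in slr1- total RNA (median 4082), and 532 to 40008 in WT total RNA (median 2955). In polysome RNA they spanned 508 to 12527 in slr1- and 353 to 10564 in WT. The highest level was that of rps21, with 56353 per kilobase in slr1- and 40008 in WT total RNA. Next in WT total RNA were rps27 of eS27 (28101 in slr1- and 20069.9 in WT), rps2502 (24434 in slr1- and 18084 in WT), rps20 (19245 in slr1- and 14247 in WT) and rps7 (11807 in slr1- and 11394 in WT). The lowest levels in WT total RNA were those of the eS4 gene rps403 (723 in slr1- and 532 in WT), the uS11 gene rps1402 (771 in slr1- and 697 in WT) and rps3002 (1395 in slr1- and 815 in WT). In polysome RNA rps20 and rps27 led, rps20 with 12527 in slr1- and 10564 in WT and rps27 with 12422 in slr1- and 10132 in WT, and rps21 had 12067 in slr1- and 8069 in WT.

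The 3 listed genes of proteins fused to ubiquitin or bound to the subunit were 2 ubiquitin fusions and the gene of a protein bound to the head. The fusion genes ubi3 and ubi5 rose in slr1- total RNA, ubi3 with 2647 and 2329.8 normalised counts in slr1- and 1438 and 1354 in WT (0.83 ± 0.11, adjusted p = 0.000945). The change of ubi5 was 0.82 ± 0.14 (adjusted p = 0.00216). The RACK1 homolog cpc2 did not pass (0.18 ± 0.13, adjusted p = 0.253). Of 57 genes for assembly of the small subunit 4 were in the table, of which 0 rose, 3 fell and 1 did not pass in slr1- total RNA, where 33.6% of all listed genes and 173 of the 401 that encode no ribosomal protein fell. They were gar2 (-1.02 ± 0.15), nop56 (-0.83 ± 0.18), nop58 (-0.70 ± 0.17) and snu13 (-0.0015 ± 0.11), all of the nucleolar machinery that processes ribosomal RNA, and snu13 is the one that did not pass.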

How the data were processed

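Counts of reads per gene were taken as the authors deposited them for 527 genes in 8 libraries. Per the labels, ribosomal RNA was removed before stranded libraries were made, which were read from a single end over 50 bases, and per the submitters' processing notes Bowtie and RSEM were used. Versions, genome build and the rule for listing genes have no statement in the sources used here. The log2 fold changes, p-values and ratios in the table that the authors deposited were not used in any result. All count columns were matched to a library.

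The counts were fitted with edgeR 4.0.16 in R 4.3.3 (quasi-likelihood test, TMM factors, and a common dispersion of 0.0127 with 4 residual degrees of freedom in a model of 4 groups and 8 libraries), with Benjamini-Hochberg adjustment over the 527 genes and a threshold of 0.05. Normalised counts are counts divided by the effective library size and multiplied by its mean over the libraries. A standard error is the log2 change divided by the square root of F. DESeq2 1.42.0, other scalings, a minimum of 500 counts, left-out libraries and summed copies were alternatives, and the summed copies and the 7-letter HomolD form were chosen after seeing the data, as was the share of all pairs of listed genes whose ratios do not overlap. Sequences, transcripts and symbols came from RefSeq assembly ASM294v3, read with Biopython 1.88. The fit was tested on simulated data. Members and gene lists were chosen with earlier results of these data known. Values per library were given, by rule, for the 5 called genes with the largest change in total RNA, the 5 families with the largest difference between copies, the 4 genes with the smallest p in polysome RNA and in the interaction, and the 3 with the largest difference between polysome and total RNA in each strain. Levels were given for the 5 highest and 3 lowest genes per kilobase in WT total RNA. Other genes named with values were chosen after these were seen.

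Libraries of the same replicate number did not deviate together over all group pairs, and replicate numbers were not treated as pairs in the main fit. Between total and polysome RNA of one strain their deviations correlated at 0.07 in slr1- and 0.285 in WT. The alternative called the replicate block per strain treated same-numbered total and polysome libraries of a strain as pairs. In that fit rps1902 passed in the interaction. Precision is limited by 2 libraries per group, with a median count of 2031 per member gene and library. Some genes and values are not reported here by name, though they enter the fits and counts.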

Additional observations from a re-analysis of the deposited data

Results flagged for a closer look

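For the eS19 gene rps1902 both polysome libraries lay below the total RNA libraries in slr1- and above them in WT. In slr1- cells it had 1057 and 1062 normalised counts in polysome RNA, against 1494 and 1342 in total RNA (-0.42, adjusted p = 0.00626 by edgeR). In WT cells it had 1062 and 1043 in polysome RNA, against 935 and 866 in total RNA, a difference that did not pass (0.22, adjusted p = 0.115 by edgeR). The difference between the strains, tested as an interaction with the edgeR quasi-likelihood test, was -0.65 on the log2 scale with an adjusted p of 0.0531, so it did not pass. It passed with DESeq2 (-0.73), with genes of at least 500 counts (-0.60), with a replicate block per strain (-0.64), without replicate 2 of slr1- total RNA (-0.72) and without replicate 1 of WT total RNA (-0.70). It did not pass with DESeq2 size factors in edgeR, TMM factors computed without ribosomal protein genes, library sizes alone, the replicate block over all groups or any of the other 6 libraries left out, where its adjusted p ran from 0.0584 to 0.213 and its value from -0.93 to -0.56.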

How the results depend on the processing

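Of the 50 genes 30 were higher in slr1- total RNA, while 19 passed with genes of at least 500 counts and 12 to 29 with a library left out. In polysome RNA 11 passed with DESeq2 and 0 to 1 with a library left out. In the interaction 3 were lower with DESeq2, 1 with genes of at least 500 counts, 1 with the replicate block per strain and 0 to 5 with a library left out. With library sizes alone 4 genes were higher and 22 lower in slr1- polysome against total RNA, and 5 were higher in WT, where 1 was higher with at least 500 counts. For summed copies in total RNA 11 proteins passed with library sizes alone, 12 with at least 500 counts and 6 to 21 with a library left out. Summed copies gave 5 in polysome RNA and 1 in the interaction with DESeq2, and 0 to 1 in the interaction with a library left out. With library sizes alone they gave 4 higher and 17 lower in slr1-, and 2 higher and 14 lower in WT. In the main fit 19.7% of all listed genes were higher in slr1- total RNA. With DESeq2 11.5% of the 200 genes with an adjusted p were higher in polysome RNA, and 3.42% were lower in the interaction. For the other settings no share over all listed genes is given beside these counts. Without large subunit genes the members' shares of the counts were 30.5% in slr1- total, 25.0% in WT total, 21.1% in slr1- polysome and 17.8% in WT polysome RNA.

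The sign turned for the interaction median and for the changes in total RNA of genes that include rps3001, rps1801, rps2801, rps2401, rps1501 and rps1701. The interaction median was 0.0076 with library sizes alone, 0.0029 without replicate 1 of slr1- total RNA, and -0.20 to 0.0029 with a library left out. Library sizes alone shifted all listed genes by 0.087, and the members' distance from genes that encode no ribosomal protein was -0.31, against -0.32. Scaling could hardly change that distance, and with genes of at least 500 counts it was -0.20. For rps3001 the change was 0.23 without ribosomal protein genes in TMM and 0.017 with total RNA alone. For rps1801 it was -0.028 with library sizes alone, -0.020 without replicate 1 of WT total RNA, and up to 0.36 with another library left out. For rps2801 it was -0.025 without replicate 1 of WT total RNA and up to 0.59 with another library left out. For rps2401 it was -0.096 with library sizes alone and -0.058 with at least 500 counts. For rps1501 it was 0.062 with all libraries, -0.023 without replicate 1 of slr1- total RNA and -0.0049 without replicate 1 of WT total RNA. For rps1701 it was 0.15 with all libraries and -0.042 without replicate 1 of slr1- total RNA. Apart from the shift of all listed genes, the cause was not tested. Deviations of same-numbered libraries correlated at -0.29 to 0.285 between groups, and with the replicate block 29 genes passed in total RNA, 28 of them among the 30.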
